A study of Mus musculus with 12 samples.

Results

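The classical histone deacetylases of the mouse, Hdac1 to Hdac10, were followed across 12 two-colour arrays on which RNA from drug-treated cells was set against RNA from vehicle-treated cells. The members were the 10 genes named Hdac1 to Hdac10, and every spot that the array annotation assigns to one of them was taken. The annotation used here lists a spot for 9 of the 10 genes and none for Hdac8. These 9 genes had 10 spots, of 22393 spots on the array and 16504 genes with a spot, because Hdac9 was represented by a spot for NM_024124 and another for AK173017. The drugs were pioglitazone, telmisartan and irbesartan, with 4 arrays for each, and vehicle-treated cells were the other channel of every array. RNA of each side was pooled from 3 cultures, per the labels, which give neither cell type, strain, dose nor time. Pioglitazone belongs to the thiazolidinediones, which are ligands of the nuclear receptor PPAR-gamma. Telmisartan and irbesartan are biphenyl-containing blockers of the angiotensin type 1 receptor, telmisartan with a carboxylic acid and irbesartan with a tetrazole on the biphenyl.

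Histone deacetylases take acetyl groups off lysines of histones and other proteins, and on chromatin this is usually linked to lower transcription. Class I enzymes (Hdac1, Hdac2, Hdac3 and Hdac8) are mostly nuclear, and Hdac1 and Hdac2 form the catalytic core of the Sin3, NuRD and CoREST complexes, while Hdac3 acts in the NCoR corepressor complex that unliganded nuclear receptors, PPAR-gamma included, can recruit. Class IIa enzymes (Hdac4, Hdac5, Hdac7 and Hdac9) have little catalytic activity of their own, bind MEF2 transcription factors, and leave the nucleus when kinases phosphorylate them. Class IIb enzymes (Hdac6 and Hdac10) work largely in the cytoplasm, where Hdac6 deacetylates tubulin. In fat cells Hdac9 is known from mouse work as a brake on differentiation.

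Values are given as log2 ratios of drug over vehicle, so that 0 is no difference and a negative value is a lower level with the drug. Arrays 1 and 3 of a drug held the drug RNA in channel 1, and arrays 2 and 4 held it in channel 2. The sources used here do not state which channel was the numerator. Channel 2 over channel 1 was read as likely, since it placed 19 of 24 genes known to be induced by thiazolidinediones above 0 on the pioglitazone arrays, including 13 of the 16 that differed at least 1.5-fold, and 5 of 7 repressed genes below 0. Both gene lists were drawn up with earlier results of these data known, which limits this basis. Fabp4, Adipoq, Plin1, Cidec and Lpl are on the induced list and among the 9 fat cell genes below. Retn and Lep, also among these 9, are on the repressed list. Of those 9, 6 were lower with pioglitazone. Under the opposite reading every sign given here would turn. The histone deacetylases were chosen by their drug over vehicle ratios on these same arrays, and their ratios and the differences between drugs are therefore described without a test. Each array had a value for 17877 to 20721 spots, and 7.47% to 20.17% of spots were empty. No signal over background can be given, and a ratio does not tell how strongly a gene is expressed. Among markers for the cell type, 9 of 9 measured preadipocyte and fibroblast genes were lower with each drug (medians -1.34 with pioglitazone, -0.81 with telmisartan and -0.82 with irbesartan). Of 9 fat cell genes, 2 were higher and 6 lower with pioglitazone, 0 higher and 4 lower with telmisartan, and 3 higher and 4 lower with irbesartan. Macrophage genes (3 measured) and endothelial genes (2 measured) gave at most 1 call in either direction per drug. The part of these shifts in the ratios below was not tested, and fewer cells of a type cannot be told apart from less RNA per cell.

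Hdac5, a class IIa enzyme and MEF2 corepressor, was lower than vehicle on all 12 arrays. Its ratios were -0.33, -0.73, -0.35 and -0.77 on pioglitazone arrays 1 to 4, -0.41, -0.68, -0.43 and -0.62 on telmisartan arrays, and -0.26, -0.49, -0.26 and -0.44 on irbesartan arrays. The ranges of the 3 drugs overlapped. Hdac5 was fitted over all arrays with a term for channel order. It stood at -0.55 ± 0.03 with pioglitazone, -0.54 ± 0.03 with telmisartan and -0.36 ± 0.03 with irbesartan (SE). Each SE here and below rests on 1 spread per feature over all 12 arrays, 4 per drug, and not on a drug's own spread. These fitted ratios correspond to 68.5%, 68.8% and 77.8% of vehicle in that order of drugs. Of the features tested, 4.29% had a lower fitted ratio with pioglitazone, 1.92% with telmisartan and 3.99% with irbesartan.

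Hdac4, the closest relative of Hdac5 in this class, was also below 0 on every array. It read -0.21, -0.40, -0.26 and -0.34 with pioglitazone, -0.25, -0.11, -0.44 and -0.31 with telmisartan, and -0.18, -0.46, -0.40 and -0.52 with irbesartan. The fitted ratios were -0.30, -0.28 and -0.39 (SE 0.06 each), or 81%, 82.5% and 76.3% of vehicle, for pioglitazone, telmisartan and irbesartan. The arrays of the 3 drugs overlapped throughout for Hdac4.

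Hdac7, the class IIa member known for its role in endothelial cells and thymocytes, had the lowest ratio of the family and differed most between drugs. Its ratios were -0.78, -1.41, -1.02 and -1.32 with pioglitazone. With telmisartan they were -0.68, 0.14, -0.78 and 0.54, and with irbesartan -0.23, -0.43, 0.004 and -0.48. All 4 pioglitazone arrays lay below all 4 telmisartan arrays, an arrangement found for 8.12% of the features with a value on every array, and below all 4 irbesartan arrays, as 8.78% of features did. The fitted ratio was -1.13 ± 0.20 with pioglitazone, 45.6% of vehicle, and 0.581% of the features tested had a lower one. It was -0.19 ± 0.20 with telmisartan and -0.29 ± 0.20 with irbesartan (SE). This shared SE does not show each drug's own spread, as the SD over arrays was 0.289 with pioglitazone, 0.64 with telmisartan and 0.221 with irbesartan. The difference was -0.94 ± 0.28 for pioglitazone minus telmisartan and -0.85 ± 0.28 for pioglitazone minus irbesartan (SE).

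The telmisartan value of Hdac7 depends on the arrays used. Both arrays with telmisartan in channel 1 were negative and both with telmisartan in channel 2 were positive, a gap of 1.07 between the channel means, and the SD over the 4 arrays was 0.64. Left without telmisartan array 4 the fitted ratio was -0.45, and without array 3 it was 0.007. The gap for pioglitazone ran the other way, at -0.47, with every array negative.

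Hdac9 gave no common direction on either spot. The NM_024124 spot read -0.39, -0.21, 0.07 and 0.05 with pioglitazone, -0.43, -0.14, 0.12 and -0.22 with telmisartan, and 0.18, -0.21, 0.09 and 0.06 with irbesartan. Its fitted ratios of -0.12, -0.17 and 0.03 for pioglitazone, telmisartan and irbesartan had an SE of 0.10 each. Without array 1 of the drug they were -0.009 for pioglitazone and -0.06 for telmisartan. The AK173017 spot was empty on telmisartan arrays 1 and 3 and was left out of the fit. It read 0.16, -0.06, -0.21 and -0.05 with pioglitazone, -0.06 and 0.07 with telmisartan, and -0.28, 0.41, -0.98 and 0.16 with irbesartan, where the SD was 0.61.

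Of the class IIa genes, Hdac7 had 4 promoter entries, and these are not printed. The upstream sequences of Hdac4 and Hdac5, which were below 0 on all arrays, and of Hdac9, which was not, are shown. Each is the 250 bases before an annotated start from RefSeq on GRCm38.p6, read on the minus strand and written 5′ to 3′, with capitals at GC boxes (GGGCGG, either strand) and TATA boxes (TATAAA, either strand).
Hdac4, chr1:92180342-92180591: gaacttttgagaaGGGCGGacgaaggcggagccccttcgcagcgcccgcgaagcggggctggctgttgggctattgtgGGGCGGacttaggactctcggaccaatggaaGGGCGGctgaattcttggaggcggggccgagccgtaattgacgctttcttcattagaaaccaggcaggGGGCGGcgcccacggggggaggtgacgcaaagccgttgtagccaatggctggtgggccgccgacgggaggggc
Hdac5, chr11:102230173-102230422: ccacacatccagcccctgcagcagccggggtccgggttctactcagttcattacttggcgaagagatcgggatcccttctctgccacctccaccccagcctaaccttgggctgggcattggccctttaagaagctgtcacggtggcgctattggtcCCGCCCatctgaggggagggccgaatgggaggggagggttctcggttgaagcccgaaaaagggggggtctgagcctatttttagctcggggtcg
Hdac9, chr12:34917096-34917345: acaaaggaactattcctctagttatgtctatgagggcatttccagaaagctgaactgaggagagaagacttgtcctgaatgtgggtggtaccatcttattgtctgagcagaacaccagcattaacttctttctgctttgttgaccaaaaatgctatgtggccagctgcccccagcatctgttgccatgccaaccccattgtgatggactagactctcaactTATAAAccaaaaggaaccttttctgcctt
The Hdac4 sequence holds 4 GC boxes and has a GC content of 65.2%, the Hdac5 sequence holds 1 GC box at 60.8%, and this first of 2 Hdac9 entries holds a TATA box and no GC box at 44.4%. The second Hdac9 entry holds neither, at 43.6%. A GC box was found in 32.7% of all 32851 promoters of this length and a TATA box in 12.4%. The table held 11 entries for 7 of the genes (Hdac2, Hdac4, Hdac5, Hdac6, Hdac7, Hdac8 and Hdac9), with a median GC content of 61.2% against 52.4% over all promoters. Of 4 Hdac7 entries 1 held a GC box, and Hdac6 held 4. The Hdac2 entry held 1 GC box at 68.8%, with fitted ratios of -0.001, 0.03 and 0.21 for pioglitazone, telmisartan and irbesartan. Hdac8, which had no spot, held a TATA box and no GC box at 48.4%. Whether such boxes go with the ratios was not tested. None of the 11 entries held an exact DR1 element, the kind of site that PPAR-gamma binds with RXR, searched on both strands as AGGTCA repeated directly after 1 base of any kind (0.0335% of all promoters). None held an E-box, CACGTG (6.02% of all promoters). These are matches of letters in a window and are not measured sites.

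**Figure D1:**
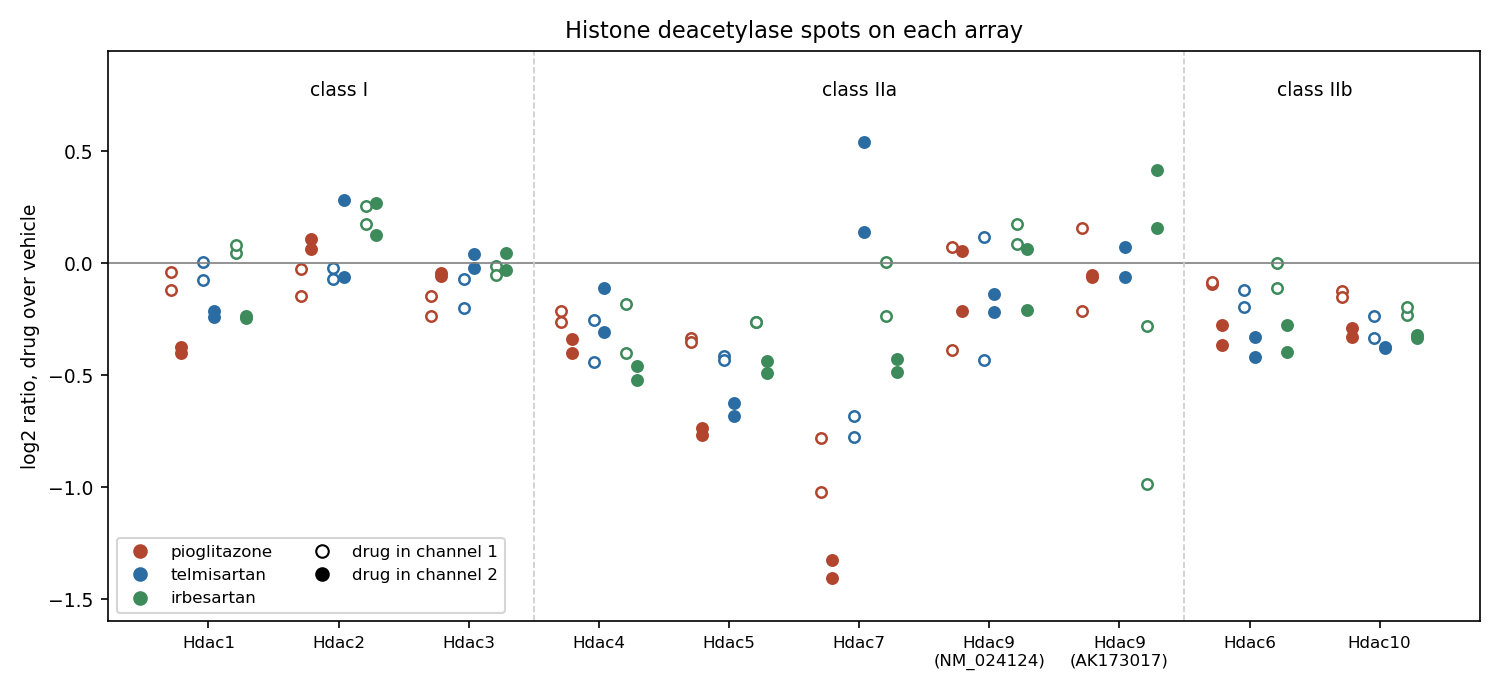
The log2 ratio of drug over vehicle is plotted for each of the 10 histone deacetylase spots on each array, by drug from left to right within a spot (pioglitazone, telmisartan, irbesartan), with open points where the drug was in channel 1 and filled points where it was in channel 2. Hdac4, Hdac5 and Hdac10 lie below 0 on all 12 arrays, and Hdac7 spans from -1.41 with pioglitazone to 0.54 with telmisartan.

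Hdac1, of class I, had ratios of -0.12, -0.40, -0.04 and -0.37 with pioglitazone, 0.008, -0.21, -0.08 and -0.24 with telmisartan, and 0.05, -0.24, 0.08 and -0.24 with irbesartan. It was below 0 on every pioglitazone array but on 3 of 4 telmisartan and 2 of 4 irbesartan arrays. The fitted values were -0.23, -0.13 and -0.09 (SE 0.03 each) for pioglitazone, telmisartan and irbesartan, with pioglitazone at 85.2% of vehicle. Whether the Hdac1 spot also binds transcripts of near-identical copies was not tested.

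Hdac2, which pairs with Hdac1 in the same complexes, was the sole member above 0 on all 4 arrays of a drug. It read -0.03, 0.11, -0.15 and 0.06 with pioglitazone, -0.02, -0.06, -0.07 and 0.28 with telmisartan, and 0.26, 0.12, 0.18 and 0.27 with irbesartan. All pioglitazone arrays lay below all irbesartan arrays, as 8.78% of features did, while telmisartan arrays overlapped with both. The fitted ratio was -0.001 ± 0.05 with pioglitazone, 0.03 ± 0.05 with telmisartan and 0.21 ± 0.05 with irbesartan (SE), the last at 115% of vehicle, and the difference of pioglitazone minus irbesartan was -0.21 ± 0.08 (SE). The irbesartan ratio of Hdac2 exceeded that of 91.8% of the features tested.

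Hdac3, the deacetylase of the NCoR complex, stayed close to 0. It read -0.14, -0.04, -0.23 and -0.06 with pioglitazone, -0.20, 0.04, -0.07 and -0.02 with telmisartan, and -0.01, -0.03, -0.05 and 0.05 with irbesartan. The fitted ratios of -0.12, -0.06 and -0.01 for pioglitazone, telmisartan and irbesartan had an SE of 0.03 each, and pioglitazone alone had every array below 0.

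Both class IIb genes were modestly lower with every drug. Hdac6 read -0.09, -0.36, -0.08 and -0.28 with pioglitazone, -0.20, -0.42, -0.12 and -0.33 with telmisartan, and 0.003, -0.28, -0.11 and -0.40 with irbesartan, and was thus below 0 on 11 of 12 arrays. Hdac10, a polyamine deacetylase, read -0.12, -0.29, -0.15 and -0.33 with pioglitazone, -0.24, -0.38, -0.33 and -0.37 with telmisartan, and -0.23, -0.32, -0.20 and -0.33 with irbesartan. The fitted values of Hdac6 were -0.20, -0.27 and -0.19 (SE 0.03 each), and those of Hdac10 were -0.22, -0.33 and -0.27 (SE 0.03 each), for pioglitazone, telmisartan and irbesartan. Telmisartan gave the lowest value of both, at 83.2% of vehicle for Hdac6 and 79.5% for Hdac10.

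**Figure D2:**
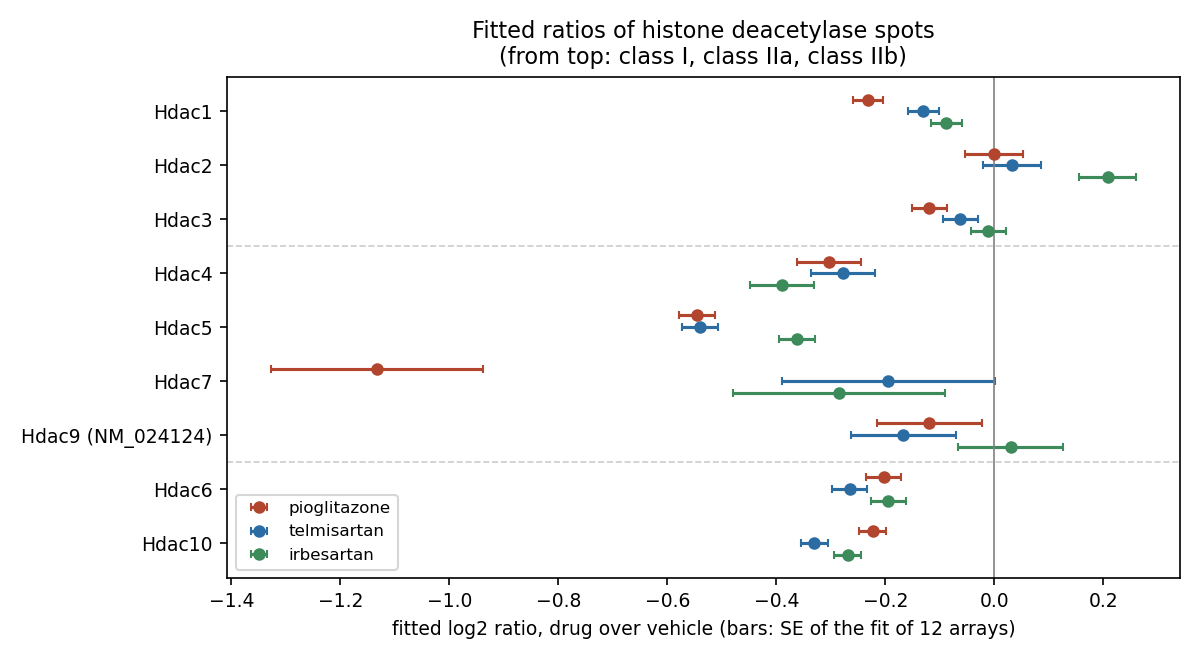
Fitted log2 ratios of drug over vehicle for the 9 histone deacetylase spots that passed the filter, with SE bars from the fit of 12 arrays, run from class I at the top to class IIb at the bottom. Hdac7 with pioglitazone stands at -1.13, and Hdac2 with irbesartan is the highest at 0.21.

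Class medians were compared with the median of all features. The class IIa median of 4 spots was -0.42 with pioglitazone, -0.24 with telmisartan and -0.32 with irbesartan. The class I median of 3 spots was -0.12, -0.06 and -0.01 for the same drugs, and the class IIb median of 2 spots was -0.21, -0.30 and -0.23. Class IIa was lowest with pioglitazone and irbesartan and class IIb with telmisartan, where the class IIa median rests in part on the array-dependent Hdac7 value. The median over all features tested was 0.005 with pioglitazone, 0.005 with telmisartan and 0.003 with irbesartan. Of the spots with all 4 values, 7 of 10 were below 0 on every pioglitazone array, where 27.8% of features with a gene were. With telmisartan 4 of 9 spots were (21.8% of features), and with irbesartan 3 of 10 (19% of features), while 1 spot, Hdac2, was above 0 on all irbesartan arrays (17.3% of features). Hdac4, Hdac5 and Hdac10, 3 of the 9 spots with 12 values, were below 0 on all 12 arrays, against 11.5% of features. These counts repeat the values by which the genes were chosen.

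The channel that held the drug moved several members by amounts like those between drugs. Both channel 2 arrays lay below both channel 1 arrays for 6 of 10 spots with pioglitazone, 4 of 9 with telmisartan and 7 of 10 with irbesartan. The corresponding shares of features with a gene were 36.9%, 30.9% and 37.5%. Over all drugs the gap of channel 2 minus channel 1 arrays was -0.28 for Hdac5, -0.27 for Hdac1 and -0.24 for Hdac6, while it was 0.10 for Hdac2 and 0.11 for Hdac3. The fitted values average over both orders, and each order was used equally for every drug.

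**Figure D3:**
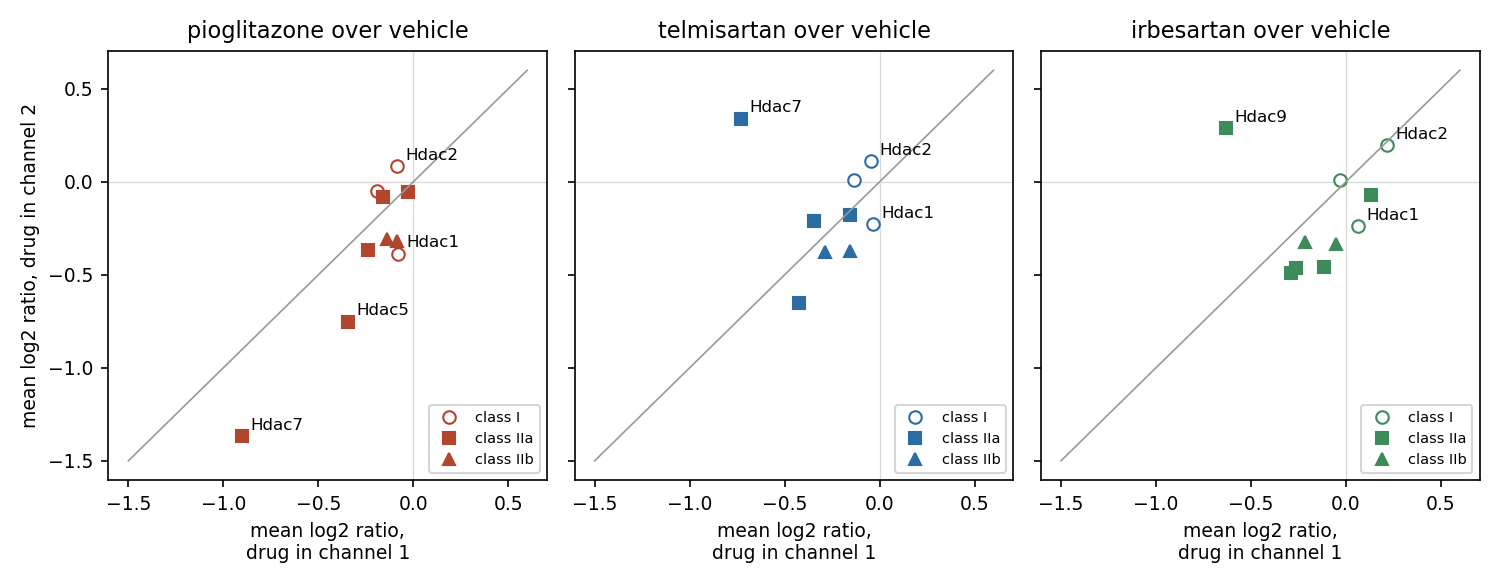
Each histone deacetylase spot is placed by its mean log2 ratio over the arrays with the drug in channel 1 (x axis) and in channel 2 (y axis), in a panel for each drug, with the line of equal values. Most points lie below the line, Hdac7 with telmisartan and the AK173017 spot of Hdac9 with irbesartan lie far above it, and Hdac7 with pioglitazone is at the lower left in both orders.

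The other deacetylases and the proteins that work with or against the members were tested, from lists drawn up, like the members, with earlier results of these data known. A gene's spots were averaged, and limma's p-values were adjusted over all 13945 genes tested. Of 106 genes in 9 lists, 87 had enough values. With pioglitazone 13 of these rose and 47 fell, or 14.9% and 54%, where 24.8% and 27.2% of all genes did. With telmisartan 12 rose and 37 fell, or 13.8% and 42.5%, against 21.5% and 21.6% of all genes. With irbesartan 13 rose and 26 fell, or 14.9% and 29.9%, against 15.8% and 17.9%. Median log2 ratios of the 87 genes were -0.12 with pioglitazone, -0.08 with telmisartan and -0.07 with irbesartan, and those of all genes were 0.003, 0.006 and 0.002.

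Hdac11, the class IV deacetylase, fell with every drug. It read -0.50, -0.82, -0.49 and -1.02 with pioglitazone, -0.29, -0.49, -0.33 and -0.70 with telmisartan, and -0.22, -0.58, -0.30 and -0.59 with irbesartan, so that every array was negative. The fitted ratio was -0.71 ± 0.04 with pioglitazone (adjusted p = 9.16e-08), -0.45 ± 0.04 with telmisartan (adjusted p = 5.61e-06) and -0.42 ± 0.04 with irbesartan (adjusted p = 1.21e-05). It was lower with pioglitazone than with telmisartan by -0.25 ± 0.06 (adjusted p = 0.0136) and than with irbesartan by -0.28 ± 0.06 (adjusted p = 0.00637). Both differences missed the threshold without the dye term (adjusted p = 0.398 and 0.287), where their sizes were unchanged at -0.253 and -0.283. They also missed it with the arrays scaled to a common spread (0.0539 and 0.17), at -0.196 and -0.135.

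Of the 7 sirtuins, the NAD-dependent class III, Sirt3, the main mitochondrial deacetylase, rose with pioglitazone by 0.22 ± 0.03 (adjusted p = 0.000109, 4 of 4 arrays). It stood at -0.04 ± 0.03 with telmisartan and 0.005 ± 0.03 with irbesartan, and the difference was 0.27 ± 0.04 for pioglitazone minus telmisartan (adjusted p = 0.00209) and 0.22 ± 0.04 for pioglitazone minus irbesartan (adjusted p = 0.00594, and 0.0768 without the dye term). Sirt2, a cytoplasmic deacetylase of tubulin, fell by 0.41 with pioglitazone (adjusted p = 0.000507). Its telmisartan ratio of -0.20 passed narrowly (adjusted p = 0.039) and missed the threshold in 11 of 24 alternatives, and irbesartan gave -0.15 (adjusted p = 0.144) with arrays from -0.61 to 0.41. Sirt7, a nucleolar member, passed with telmisartan at -0.11 (adjusted p = 0.00862) and with irbesartan at -0.08 (adjusted p = 0.0441), but missed it in 2 and 14 of 24 alternatives. Sirt6 passed with irbesartan at 0.16 (adjusted p = 0.0417) and missed it in 9 of 24. Sirt1, Sirt4 and Sirt5 passed with no drug.

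Subunits of NuRD and CoREST, complexes built on Hdac1 and Hdac2, were more often lower than higher. Of all genes, 24.8% rose and 27.2% fell with pioglitazone, 21.5% and 21.6% with telmisartan, and 15.8% and 17.9% with irbesartan. Of 9 NuRD genes, 0 rose and 7 fell with pioglitazone, 0 rose and 5 fell with telmisartan, and 1 rose and 4 fell with irbesartan. Chd4, an ATPase that remodels nucleosomes in NuRD, stood at -0.39 with pioglitazone (adjusted p = 4.58e-05), -0.66 with telmisartan (1.14e-06) and -0.27 with irbesartan (0.00101, and 0.0587 without the dye term). The related ATPase Chd3 stood at -0.47, -0.31 and -0.37 for the same drugs (adjusted p 9.12e-07, 3.9e-05 and 1.37e-05). Of 9 CoREST genes, 1 rose and 5 fell with pioglitazone, and 0 rose and 6 fell with telmisartan as well as with irbesartan. Rcor3, a scaffold of this complex, fell by 0.38, 0.36 and 0.23 with pioglitazone, telmisartan and irbesartan (adjusted p 1.4e-06, 3.62e-06 and 0.000141), with 4 of 4 arrays below 0 for each. Zmym3, a zinc finger subunit, fell by 0.33, 0.39 and 0.22 with the same drugs (adjusted p 2.26e-06, 1.16e-06 and 9.77e-05), again on every array.

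Of 14 Sin3 genes, 3 rose and 7 fell with pioglitazone, 2 rose and 6 fell with telmisartan, and 3 rose and 1 fell with irbesartan. These were 21.4% and 50% with pioglitazone, 14.3% and 42.9% with telmisartan, and 21.4% and 7.14% with irbesartan. The shares of all genes were 24.8% and 27.2%, 21.5% and 21.6%, and 15.8% and 17.9% for the same drugs. Sap30, a subunit that links Sin3 to its deacetylases, was among those that rose. Its ratios were 0.90, 1.12, 1.10 and 1.30 with pioglitazone, 0.58, 0.44, 0.61 and 0.83 with telmisartan, and 0.35, 0.39 and 0.68 on the 3 irbesartan arrays with a value. It rose by 1.11 ± 0.06 with pioglitazone (adjusted p = 2.48e-07), 0.61 ± 0.06 with telmisartan (3.09e-05) and 0.50 ± 0.08 with irbesartan (0.000469). Every pioglitazone array of Sap30 lay above every measured array of the other drugs. Of features with 12 values, 5.7% did so against telmisartan and 7.48% against irbesartan. Sap30 was set against only 3 irbesartan arrays, so the 7.48% is not a like share. The rise was larger than with telmisartan by 0.49 ± 0.09 (adjusted p = 0.00514) and than with irbesartan by 0.60 ± 0.10 (0.00241). Ing2, which reads methylated histone tails for Sin3, rose by 0.46, 0.42 and 0.23 with pioglitazone, telmisartan and irbesartan (adjusted p 8.05e-07, 2.84e-06 and 0.000401).

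Of the genes listed for the NCoR complex, 4 were tested. Tbl1xr1, which helps exchange corepressors for coactivators, rose by 0.44 with pioglitazone (adjusted p = 6.55e-06), 0.37 with telmisartan (3.61e-05) and 0.16 with irbesartan (0.0129, but past the threshold in all but 4 of 24 alternatives). Gps2, a subunit of the complex, fell by 0.53 with pioglitazone (adjusted p = 0.000379), while it stood at -0.16 with telmisartan (0.178) and -0.17 with irbesartan (0.169), differences from pioglitazone that did not pass (0.0669 and 0.0695). Nrip1, a nuclear receptor corepressor that binds deacetylases and restrains oxidative genes in fat cells, read -0.41, -0.53, -0.29 and -0.49 with pioglitazone, -0.29, -0.35, -0.34 and -0.38 with telmisartan, and 0.10, -0.11, -0.06 and 0.005 with irbesartan. Pioglitazone arrays all lay below the irbesartan arrays (8.78% of features did), and so did the telmisartan arrays (4.3%). Nrip1 fell by 0.43 with pioglitazone (adjusted p = 1.5e-06) and 0.34 with telmisartan (1.63e-05), while irbesartan gave -0.02 ± 0.04 (0.788). The difference was -0.41 ± 0.05 for pioglitazone minus irbesartan (adjusted p = 0.000267) and -0.32 ± 0.05 for telmisartan minus irbesartan (0.00343).

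Among 17 tested partners and kinases of the class IIa enzymes, 5 rose and 9 fell with pioglitazone, 6 rose and 8 fell with telmisartan, and 6 rose and 4 fell with irbesartan. These were 29.4% and 52.9% with pioglitazone, 35.3% and 47.1% with telmisartan, and 35.3% and 23.5% with irbesartan. The shares of all genes were 24.8% and 27.2%, 21.5% and 21.6%, and 15.8% and 17.9% for the same drugs. Camk1, a calcium-dependent kinase that can drive these enzymes out of the nucleus, read -0.81, -1.24, -0.72 and -1.21 with pioglitazone, -0.43, -0.45, -0.42 and -0.66 with telmisartan, and -0.02, -0.49, 0.01 and -0.54 with irbesartan. It fell by 0.99 ± 0.06 with pioglitazone (adjusted p = 6.46e-08) and 0.49 ± 0.06 with telmisartan (3.11e-05). The irbesartan ratio of -0.26 passed (0.00354) but had 1 array above 0 and missed the threshold without the dye term (0.119). Camk1 was lower with pioglitazone than with irbesartan by -0.74 ± 0.08 (adjusted p = 0.000122) and than with telmisartan by -0.51 ± 0.08 (0.00145, and 0.0807 without the dye term). Mef2a, a transcription factor these enzymes repress, fell by 0.35, 0.55 and 0.44 with pioglitazone, telmisartan and irbesartan (adjusted p 1.82e-05, 1.07e-06 and 7.41e-06). Ywhab, an adaptor that holds phosphorylated class IIa enzymes in the cytoplasm, rose by 0.52, 0.42 and 0.37 (8.72e-08, 9.33e-07 and 3.54e-06). Its relative Ywhae stood at -0.17 ± 0.04 with pioglitazone, -0.14 ± 0.04 with telmisartan and 0.18 ± 0.04 with irbesartan (adjusted p 0.00548, 0.0202 and 0.00617), each missing the threshold without the dye term (0.0672, 0.156 and 0.0862). The Ywhae difference was -0.36 ± 0.06 for pioglitazone minus irbesartan (adjusted p = 0.00221) and -0.33 ± 0.06 for telmisartan minus irbesartan (0.00786, and 0.138 without the dye term).

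For Hdac6, 6 cytoplasmic partners were tested, and 1 rose and 3 fell with pioglitazone, against 1 in each direction with telmisartan and with irbesartan. This was 16.7% and 50% with pioglitazone, and 16.7% each way with the other drugs. Of all genes, 24.8% rose and 27.2% fell with pioglitazone, 21.5% and 21.6% with telmisartan, and 15.8% and 17.9% with irbesartan. Tuba1a, an alpha-tubulin of the kind Hdac6 deacetylates, fell by 1.11 ± 0.02, 0.79 ± 0.02 and 0.81 ± 0.02 with pioglitazone, telmisartan and irbesartan (adjusted p 5.32e-11, 3.12e-09 and 3.52e-09). The chaperone Hsp90aa1 rose by 0.31, 0.23 and 0.14 (adjusted p 6.64e-06, 0.000133 and 0.00375). Of 13 histone acetyltransferases, the opposing enzymes, 1 rose and 6 fell with pioglitazone, 2 rose and 4 fell with telmisartan, and 0 rose and 4 fell with irbesartan. Kat6a stood at -0.605 with pioglitazone, -0.607 with telmisartan and -0.412 with irbesartan (adjusted p 0.000662, 0.000866 and 0.0121). It missed the threshold in 1 of 24 alternatives with telmisartan and 2 of 24 with irbesartan. Hat1 rose by 0.178 with pioglitazone (adjusted p = 0.000364) and 0.256 with telmisartan (3.31e-05), and stood at -0.051 with irbesartan (0.225). Gtf3c4 rose by 0.414 with telmisartan (0.00992). Kat2b fell by 0.32 with pioglitazone (adjusted p = 1.42e-05), 0.20 with telmisartan (0.000673) and 0.13 with irbesartan (0.0148, missed in 4 of 24 alternatives), with every array below 0. Of 7 bromodomain proteins, which bind acetylated lysines, 0 rose with any drug, and 6 fell with pioglitazone, 3 with telmisartan and 4 with irbesartan. Brd2 fell by 0.37 with pioglitazone (adjusted p = 1.23e-05), 0.31 with telmisartan (7.57e-05) and 0.15 with irbesartan (0.0102, missed in 2 of 24 alternatives). Brd1, a scaffold of acetyltransferase complexes, stood at -0.11, -0.45 and -0.37 with pioglitazone, telmisartan and irbesartan (adjusted p 0.0115, 7.53e-07 and 3.96e-06), and the pioglitazone value, with 2 of 4 arrays below 0, missed the threshold without the dye term (0.424) and without pioglitazone array 1 (0.0744). The Brd1 difference of pioglitazone minus telmisartan was 0.34 ± 0.04 (adjusted p = 0.000512, and 0.233 without the dye term).

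**Figure D4:**
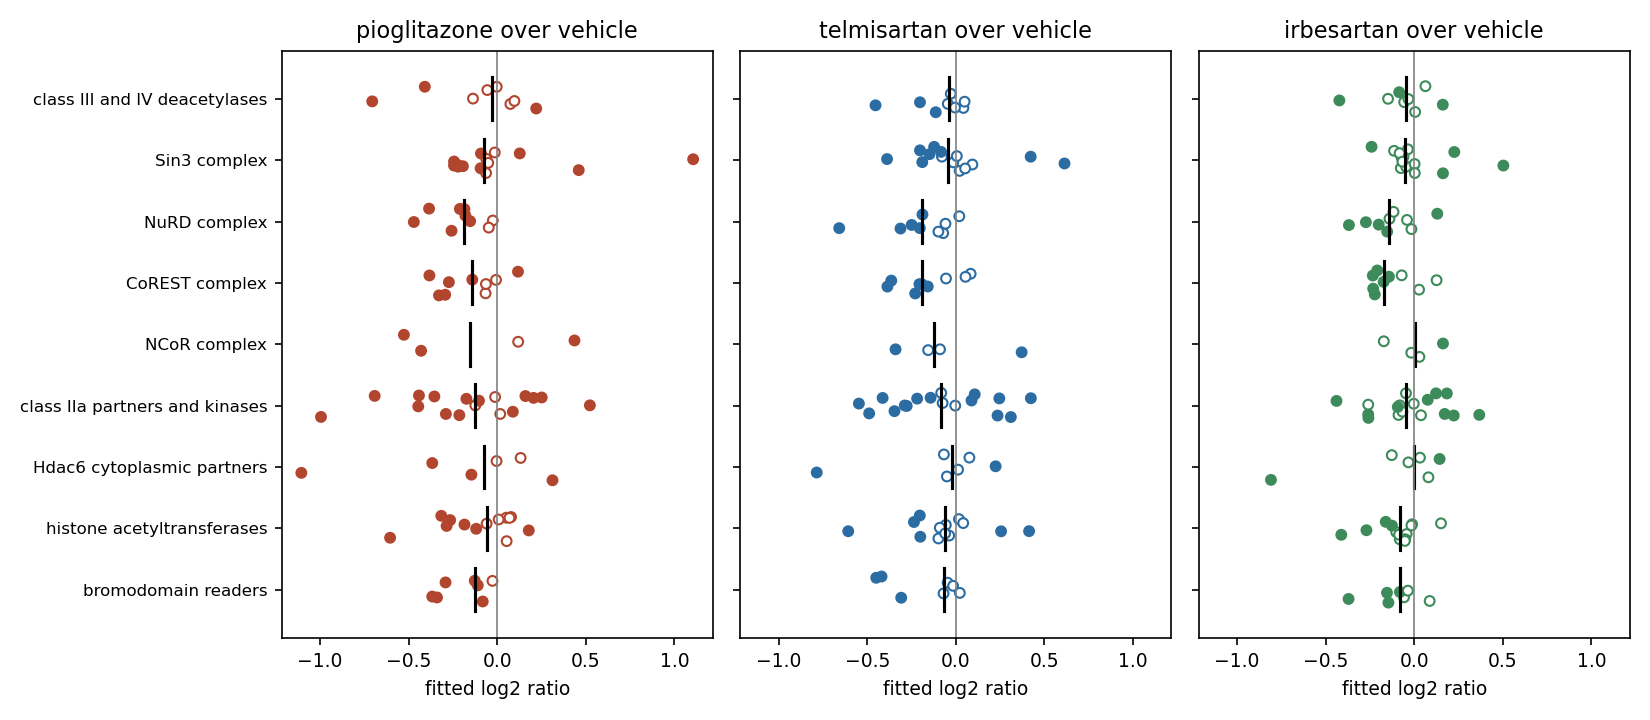
Fitted log2 ratios of drug over vehicle are shown for the tested partner genes, list by list, in a panel for each drug, with filled points for genes past an adjusted p of 0.05 and a black bar at the median of each list. Sap30 is the highest Sin3 gene in every panel, and no bromodomain gene passed above 0.

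Between drugs, 8 of the 87 genes were higher and 9 lower with pioglitazone than with telmisartan, where 6.62% and 9.69% of all genes were. Against irbesartan, pioglitazone had 10 genes higher and 17 lower (8.5% and 11.3% of all genes). Telmisartan had 3 genes higher and 13 lower than irbesartan (5.69% and 4.83% of all genes), among them Nrip1 and Chd4, where Chd4 differed by -0.39 ± 0.07 (adjusted p = 0.00667, and 0.204 without the dye term). The labels do not say whether the drugs shared vehicle RNA or whether doses were matched, so that a difference between drugs cannot be told apart from one between doses.

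Some genes had array patterns close to those of single members. Over the 12 arrays, after the dye term, the values of P4hb, Adsl and 9530068E07Rik had the highest Pearson correlations with Hdac7 (0.97, 0.96 and 0.95) among 13910 features compared. The fitted ratios of P4hb were -0.38 with pioglitazone, -0.21 with telmisartan and -0.24 with irbesartan. Those of Adsl were -0.08, -0.017 and -0.015, and those of 9530068E07Rik were -0.159, -0.05 and -0.077. Hdac7 itself stood at -1.13, -0.19 and -0.29, so the likeness was in shape over arrays and not in size. For Hdac1 the closest were Tubg2, Tln2 and Ssr2 (0.97, 0.96 and 0.96), where Tubg2 stood at -0.42 with pioglitazone, -0.20 with telmisartan and -0.11 with irbesartan. For the same drugs Tln2 stood at -0.359, -0.215 and -0.196, and Ssr2 at -0.225, -0.005 and 0.042. These are descriptions over arrays that share drugs, and the highest of many values were picked.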

How the data were processed

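RNA of cells treated with pioglitazone, telmisartan or irbesartan was compared with vehicle RNA on 12 two-colour arrays, 4 per drug. The authors deposited 1 value per spot and array, read here as log10 channel ratios: no header states the unit, which was inferred from a range ending at -2 and 2. Array medians lie between -0.00264 and -0.00096, so the values were kept as deposited. How the authors corrected background or dyes is not given in the sources used here.

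Values were multiplied to log2 and given the sign of drug over vehicle. Before this, arrays of opposite channel order correlated at -0.48 over spots with a gene. Control-like spots (471, no gene, absolute log10 ratio over 0.3 with 1 sign in both orders) were left out, which was decided with their values known, and 48 sets of repeat spots were averaged. Features with values on at least 3 of 4 arrays per drug were kept (17217 of 21486). One fit with limma 3.58.1 in R 4.3.3 held a coefficient per drug and a shared dye term. Tests are two-sided, with Benjamini-Hochberg adjustment over all features, or over 13945 genes for partners, at 0.05. The fit was tested on simulated data. The p-values measure the spread between arrays of pooled RNA, which may be technical.

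Members and lists were chosen with earlier results of these data known. Partner genes named are up to 2 rises and 2 falls per list and drug, by size, among calls whose measured arrays share a sign, and the sirtuins and Hdac11; beside them stand values of the same genes with the other drugs. Sequences are from RefSeq (GRCm38.p6). Array numbers are those of the sample titles, which run in accession order. Deviations of same-numbered arrays correlated at 0.24 to 0.49, and at -0.36 to 0.07 once the channel order was fitted, so numbers were not taken as pairs. Alternatives changed the dye term, block, filter, scaling, centring, weights, control-like spots and arrays used.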

Additional observations from a re-analysis of the deposited data

Results flagged for a closer look

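In groups of 4 arrays, 151 were searched for an array that stands apart from the other 3, and 5 were found. Chance alone gives about 1 in 20. Hdac2 read 0.281 on telmisartan array 4, against -0.072 to -0.02 on the others. On the same array Sirt6 read 0.182, against -0.008 to 0.022, and Camk1 read -0.656, against -0.446 to -0.423. The acetyltransferase Gtf3c4 read 0.037 on irbesartan array 2, against 0.173 to 0.197 on the others. Sirt1 read 0.238 on irbesartan array 1, against -0.174 to -0.118.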

How the results depend on the processing

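Without a dye term the count of features past the threshold was 3439 in place of 5393 for irbesartan over vehicle, 838 in place of 2526 for pioglitazone minus telmisartan, 1044 in place of 3113 for pioglitazone minus irbesartan and 266 in place of 1615 for telmisartan minus irbesartan, and partner genes with irbesartan numbered 21 in place of 39. A dye term for each drug gave 2564 for telmisartan minus irbesartan. Scaled arrays gave 1622 for pioglitazone minus telmisartan and 1658 for pioglitazone minus irbesartan. The cause was not tested. Leaving out 1 array at a time gave 7320 to 9400 features for pioglitazone, 6002 to 7542 for telmisartan, 4391 to 6001 for irbesartan, 1764 to 2565 for pioglitazone minus telmisartan, 2193 to 3808 for pioglitazone minus irbesartan and 1015 to 2090 for telmisartan minus irbesartan (1025 without telmisartan array 3, 1019 without irbesartan array 1, 1015 without irbesartan array 4). Partner genes ranged from 51 to 62 with pioglitazone, 43 to 54 with telmisartan and 28 to 44 with irbesartan. With the array number as a replicate block in place of the dye term, 8186, 6642 and 4929 features passed for pioglitazone, telmisartan and irbesartan, 2047, 2495 and 1082 for the differences in the order above, and 58, 46 and 34 partner genes. Of 27 fitted ratios of the histone deacetylases, 5 took the other sign under some planned setting (Hdac2 with pioglitazone and telmisartan, Hdac3 and Hdac9 with irbesartan, Hdac7 with telmisartan). No named partner result that passed the threshold in the reported fit or in an alternative changed sign between them. Signal over background is unknown, so the reliability of dim spots is too.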
